A study of Mus musculus with 4 samples.

Results

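The genes described here encode proteins of the splicing machinery and of its regulators. They were taken from the deposited tables by symbol, as gene names that begin with Srsf or Sfrs (SR proteins), Hnrnp (hnRNP proteins), Sf3a or Sf3b (the SF3 complexes), Prpf (PRP factors) or Snrp (proteins of small nuclear ribonucleoproteins, snRNPs). The rule uses no measured value. It gave 59 genes from 61 rows, of 22739 named genes in all: 11 SR protein genes, 17 hnRNP genes, 8 SF3 genes, 12 PRP factor genes and 11 snRNP protein genes. Another 3 rows join a gene of these families to a neighbour (Hnrnpul2 with Bscl2, Prpf3 with Mrps21, Sfrs18 with Coq3), and because such a value cannot be divided they were not counted.

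Polyadenylated RNA was sequenced from the embryonic stem (ES) cell line CCE, derived from mice of strain 129SV. All cultures grew on gelatin, with serum and the cytokine LIF, which together hold ES cells undifferentiated. The compared groups differ in the short hairpin RNA the cells carried: shTex10, which depletes Tex10, or shLuci, which targets luciferase and serves as control, with 2 libraries each. The series calls the replicates biological, and the time of treatment and the number of hairpins are not known here, so that effects of a hairpin on other targets cannot be told apart from those of losing Tex10. The p-values set each difference against the spread between these libraries, estimated partly from other genes of similar level. The question asked of the comparison is which transcripts differ when Tex10 is depleted.

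Splicing removes introns from the primary transcript in the spliceosome, which assembles from the U1, U2, U4, U5 and U6 snRNPs. The Sm proteins form a ring around the snRNA of most snRNPs, the SF3 complexes belong to the U2 snRNP and help hold the branch point, and PRP factors build and remodel the later assemblies. SR proteins bind exons and mostly promote their inclusion, whereas many hnRNP proteins bind introns or exons and often repress them. In ES cells, exon choice is known to differ from that of differentiated cells in genes of the pluripotency network. The values below are amounts of transcript and say nothing of exon choice or of protein.

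Values are FPKM as deposited, a level scaled to transcript length and to the reads of the library. Tex10 itself measured 77.3 and 82.1 FPKM in shLuci and 11.6 and 13.4 FPKM in shTex10, which checks the labels. All 59 genes reached the mean of 1 FPKM needed to be tested, though Srsf12 did so only through its shTex10 libraries. Levels were high: the median of the members' means over the 4 libraries was 111 FPKM, against 11.6 FPKM over all 11883 genes tested. Against shLuci replicate 1, the estimated depth of the other libraries was 83.4% to 94.0%. Single members are uncertain where processed copies of the gene elsewhere in the genome take some of the reads, since the sources do not say how such reads were counted.

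On the deposited scale, most transcripts of the splicing machinery were lower in shTex10. Counted over the 59 genes, 42 were lower, 1 was higher and 16 missed the threshold (limma, Benjamini-Hochberg adjusted p under 0.05 over all genes). The 42 are 71.2% of the members, while 31.8% of all genes tested fell. The gene that rose, Srsf12, is 1.69% of the members, against 19.8% of all genes. Fewer genes of low level can pass, so a further share was taken over the 1839 genes with a mean of at least 50 FPKM, where 51.0% fell and 9.46% rose. The median log2 change of the members, shTex10 minus shLuci on the log2(FPKM + 1) scale, was -0.52, against -0.14 over all genes and -0.35 over those 1839. Both shTex10 libraries lay below both shLuci libraries for 49 members (48.1% of all genes) and above them for 3 (28.3% of all genes), and 7 overlapped. Of the 1839 genes with at least 50 FPKM, 1225 lay below and 257 above in this way. When each library was left out in turn, 37 to 39 members were lower. Srsf4 lost its call in all 4 of these fits and Prpf19 in 3. Hnrnpk, Hnrnpl, Snrpb and Snrpg lost theirs in 2 fits, and Hnrnpa2b1, Hnrnpc, Prpf38b, Snrpa and Snrpb2 in 1. With no filter on low values, Hnrnpk, Sf3a2, Sf3b4, Snrpa, Snrpb and Snrpd3 did not pass.

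**Figure D1:**
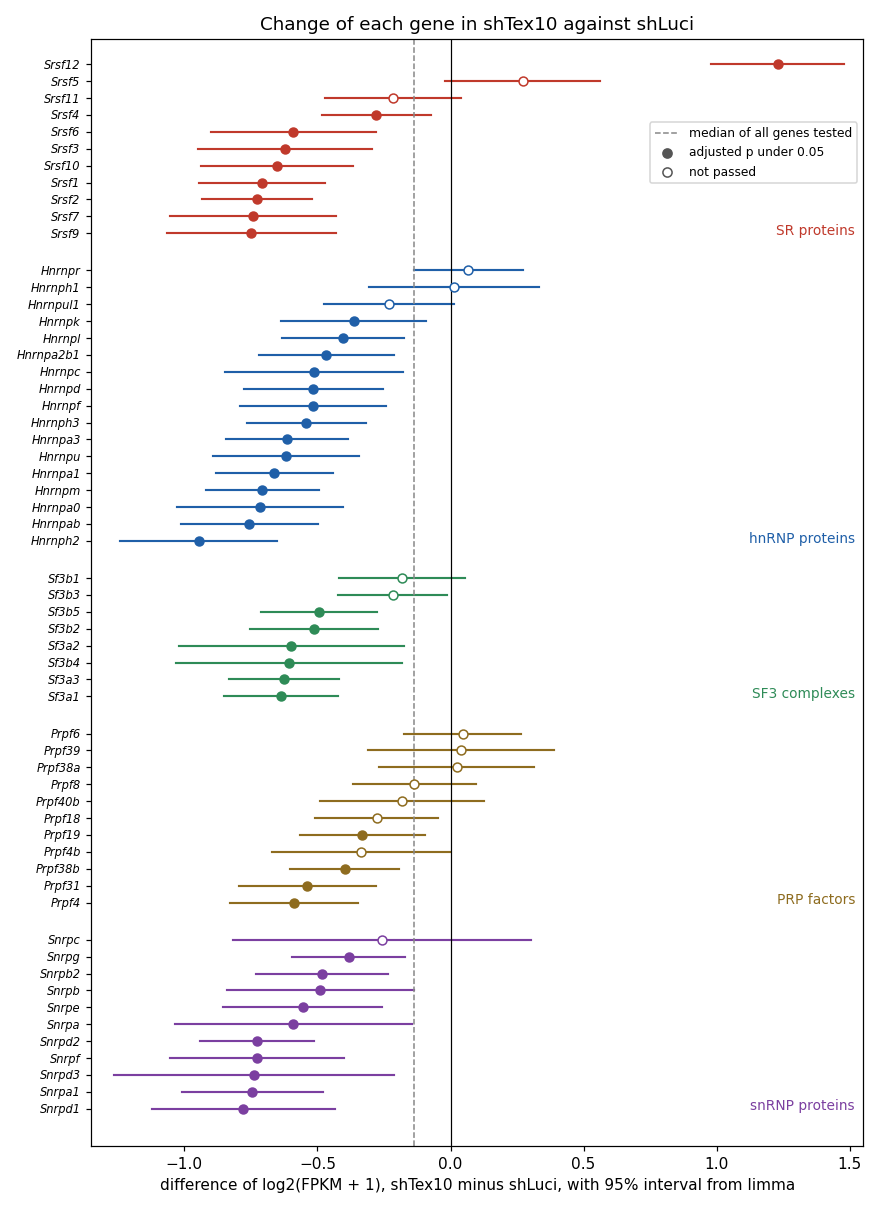
Difference of log2(FPKM + 1), shTex10 minus shLuci, for 58 of the 59 genes, ordered within families, with 95% intervals from limma (n = 2 per group). Filled points passed the adjusted p of 0.05. Most points lie left of the dashed median of all genes (-0.14), and Srsf12 alone is filled on the right.

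The number and size of these falls, and the sign of some changes, depend on how the libraries are scaled. Named genes summed to less FPKM in shTex10 than in shLuci (525878 and 537692 against 613642 and 632067). With every library brought to the same sum over named genes, 22 members (37.3%) fell and 4 (6.78%) rose, namely Srsf12, Srsf5, Hnrnpr and Prpf6. Under this scaling 16.0% of all genes fell and 27.4% rose, and of genes with at least 50 FPKM 26.9% fell and 15.4% rose, while the median over all genes moved from -0.14 to 0.06. Under quantile normalization 19 members (32.2%) fell and 3 (5.08%) rose. There 24.5% of all genes fell and 20.2% rose, and of genes with at least 50 FPKM 22.9% fell and 17.5% rose, so the members' share of falls lies nearer to the background than on the deposited scale. The 19 that fell under the deposited scale, quantile normalization and the named sum alike were Hnrnpa0, Hnrnpa1, Hnrnpa3, Hnrnpab, Hnrnph2, Hnrnph3, Hnrnpm, Srsf1, Srsf2, Srsf7, Srsf9, Srsf10, Sf3a1, Sf3a3, Snrpa1, Snrpd1, Snrpd2, Snrpf and Prpf4. They are 32.2% of the members, and 15.3% of all genes tested, or 22.5% of those with at least 50 FPKM, fell under these 3 scalings. With the same sum over all rows, in which rows without a gene name take 56.3% to 71.6% of the FPKM, 0 members fell (1 at an unadjusted limma p under 0.05), against 2.00% of all genes fallen and 5.55% risen, with the median at -0.51 and a median SE of 0.44 in place of 0.10.

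A share within a library does not depend on its scale. The 59 genes took 2.12% and 2.11% of the named FPKM in the shLuci libraries and 1.74% and 1.82% in the shTex10 libraries. The groups do not overlap, and p = 0.333 in a two-sided exact permutation test is the smallest that 2 libraries a group allow. Gene by gene, the share of named FPKM was below both controls in both shTex10 libraries for 38 members (30.8% of all genes) and above them for 7 (42.6% of all genes), with 14 overlapping. This count was not taken over genes of high level alone. The 7 were Srsf5, Srsf12, Hnrnph1, Hnrnpr, Prpf6, Prpf38a and Prpf39.

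**Figure D2:**
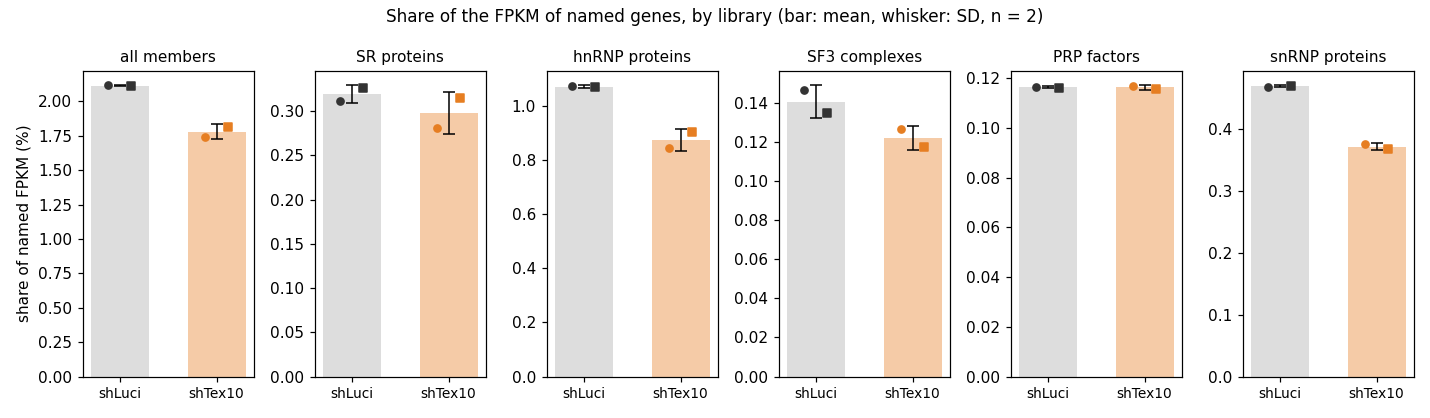
Share of the FPKM of named genes taken by all 59 genes and by each family (y axis, percent), with 1 point per library, bars for means and whiskers for SD (n = 2 per group). The share of snRNP protein genes went from 0.470% to 0.372% of named FPKM, and that of PRP factor genes was 0.117% and 0.116%.

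The families differed in their medians. The median log2 change was -0.62 for SR protein genes, -0.59 for snRNP protein genes, -0.55 for SF3 genes, -0.52 for hnRNP genes and -0.24 for PRP factor genes. As shares of named FPKM, hnRNP genes went from 1.07% ± 0.00461 to 0.873% ± 0.0415 and snRNP protein genes from 0.470% ± 0.00140 to 0.372% ± 0.00608 (SD, n = 2 each). PRP factor genes held 0.117% ± 0.000306 and 0.116% ± 0.000840, overlapping between the groups. SR protein genes overlapped as well, at 0.312% and 0.326% in shLuci and 0.282% and 0.315% in shTex10. Differences between families were not tested.

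**Figure D3:**
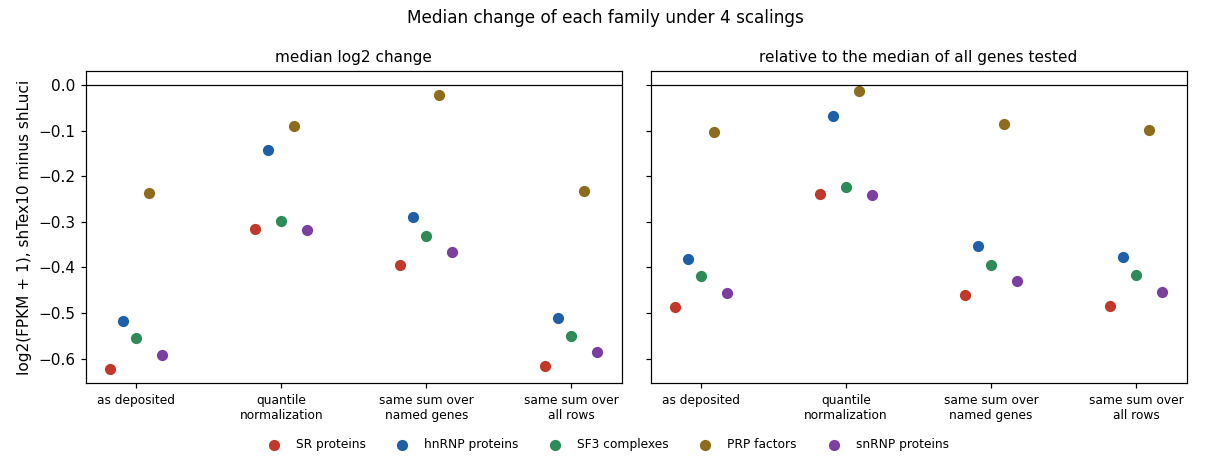
Median log2 change of each family (y axis) under 4 scalings of the libraries, as measured on the left and with the all-gene median subtracted on the right. All medians lie below 0. Those of the PRP factor genes lie nearest to it under each scaling, at -0.022 after the same sum over named genes on the left and -0.014 under quantile normalization on the right.

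Sequences before the start sites of the members were set beside those of all genes in a RefSeq table, whatever their level. RefSeq windows on GRCm38.p6, here the 250 bases before an annotated start, were found by symbol for 53 of the 59 genes (69 windows, of 32851 in the table). Their median GC content was 60.4%, against 52.4% over all windows. On either strand, GGGCGG, the GC box that Sp factors bind, was in 66.7% of the members' windows and 32.7% of all windows, and CCAAT, the core of the NF-Y site, in 49.3% and 33.8%. CCGGAAGT, a core of sites for ETS factors, was in 14.5% and 2.88%, CACGTG, the E-box of Myc and related factors, in 10.1% and 6.02%, and TATAAA in 7.25% and 12.4%. These are matches of letters in windows that differ in GC content, and no test was applied. No background of genes of similar level was taken, so no motif is shown to be particular to the members. The windows printed belong to the member with the largest fall in each family (for the snRNP protein genes the next one, Snrpa1), and to the 2 SR protein genes whose shTex10 libraries both lay above the controls. Capitals mark each match to the 5 motifs, and the last base lies next to the start site.
Hnrnph2, chrX:134600929-134601178, plus strand: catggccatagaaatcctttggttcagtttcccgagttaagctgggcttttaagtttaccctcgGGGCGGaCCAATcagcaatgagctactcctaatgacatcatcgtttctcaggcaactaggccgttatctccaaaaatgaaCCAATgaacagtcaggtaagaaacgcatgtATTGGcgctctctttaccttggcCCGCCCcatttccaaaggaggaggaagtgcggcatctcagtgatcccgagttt
Srsf9, chr5:115326927-115327176, plus strand: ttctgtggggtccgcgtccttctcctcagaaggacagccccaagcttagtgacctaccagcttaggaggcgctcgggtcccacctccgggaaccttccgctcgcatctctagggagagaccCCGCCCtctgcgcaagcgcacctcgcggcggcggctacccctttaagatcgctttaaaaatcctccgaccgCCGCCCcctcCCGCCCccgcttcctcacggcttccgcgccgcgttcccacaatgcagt
Snrpa1, chr7:66060086-66060335, plus strand: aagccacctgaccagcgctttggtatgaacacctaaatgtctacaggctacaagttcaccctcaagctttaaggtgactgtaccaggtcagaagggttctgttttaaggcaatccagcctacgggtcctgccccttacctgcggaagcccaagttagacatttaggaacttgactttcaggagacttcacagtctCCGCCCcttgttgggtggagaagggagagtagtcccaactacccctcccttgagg
Sf3a1, chr11:4160104-4160353, plus strand: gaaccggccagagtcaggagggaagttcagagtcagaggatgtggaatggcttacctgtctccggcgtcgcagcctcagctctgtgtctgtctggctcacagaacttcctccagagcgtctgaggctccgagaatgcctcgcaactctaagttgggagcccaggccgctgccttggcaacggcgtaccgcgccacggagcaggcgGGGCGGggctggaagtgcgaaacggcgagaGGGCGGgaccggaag
Prpf4, chr4:62408533-62408782, plus strand: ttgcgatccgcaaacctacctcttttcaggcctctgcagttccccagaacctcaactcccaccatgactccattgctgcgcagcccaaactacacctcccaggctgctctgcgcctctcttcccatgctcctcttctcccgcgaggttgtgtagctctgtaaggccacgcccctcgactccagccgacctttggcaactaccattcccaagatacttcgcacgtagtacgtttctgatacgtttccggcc
Srsf5, chr12:80945249-80945498, plus strand: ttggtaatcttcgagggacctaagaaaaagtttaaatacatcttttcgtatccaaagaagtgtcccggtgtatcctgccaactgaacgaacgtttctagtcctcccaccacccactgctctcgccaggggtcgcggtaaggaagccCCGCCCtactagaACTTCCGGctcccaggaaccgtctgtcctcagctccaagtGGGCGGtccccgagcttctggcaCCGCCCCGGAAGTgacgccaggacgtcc
Srsf12, chr4:33209022-33209271, plus strand: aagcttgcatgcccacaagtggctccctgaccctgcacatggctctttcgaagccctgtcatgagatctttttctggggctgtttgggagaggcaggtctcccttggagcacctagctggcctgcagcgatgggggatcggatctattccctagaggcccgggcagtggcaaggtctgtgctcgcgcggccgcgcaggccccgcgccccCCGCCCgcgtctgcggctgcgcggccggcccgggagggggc
The window of Prpf4 holds none of the 5 motifs and that of Srsf5 holds 2 copies of CCGGAAGT and 3 GC boxes. Both Srsf12, which rose, and Srsf9, which fell, hold GC boxes.

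Among 11 SR protein genes, 5 fell under quantile normalization, 7 after the same sum over named genes and 8 (72.7%) as deposited. As deposited, 1 rose and 2 did not pass, and 31.8% of all genes and 51.0% of those with at least 50 FPKM fell. The falls were alike in size for most members, with 58.5% to 66.3% of the control mean left for Srsf1, Srsf2, Srsf3, Srsf6, Srsf7, Srsf9 and Srsf10, and 82.0% for Srsf4. Srsf9 (XLOC_020610, mm9 chromosome 5, 115777185 to 115783089), a relative of Srsf1, measured 67.1 and 53.1 FPKM in shLuci and 35.4 and 34.9 FPKM in shTex10 (log2 change -0.75, SE 0.13, adjusted p = 0.00572). Its shLuci libraries differ from each other, yet both lie well above the shTex10 pair. Srsf7 (mm9 chromosome 17, 80599419 to 80606645), which also takes part in mRNA export, went from 129 and 144 to 73.5 and 89.6 FPKM (log2 change -0.74, SE 0.13). Srsf2 (mm9 chromosome 11, 116711210 to 116714408), the founding splicing factor SC35, went from 329 and 318 to 194 and 196 FPKM (log2 change -0.73, SE 0.08, adjusted p = 0.00159), with replicates close together in both groups.

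Srsf1, the classical factor SF2/ASF, measured 139 and 137 FPKM in shLuci and 79.1 and 89.0 FPKM in shTex10, a log2 change of -0.71 (SE 0.10). Srsf3 (mm9 chromosome 17, 29169604 to 29180317), a small SR protein needed in the early embryo, was second in level in the family and fell from 333 and 388 to 212 and 256 FPKM (log2 change -0.62, SE 0.13). Srsf10, whose product represses splicing when dephosphorylated, is listed in 2 rows of the same locus. The minor row held 1.29 to 2.07 FPKM and the major row 146 and 163 FPKM in shLuci and 90.3 and 106 FPKM in shTex10, so the sum rests on the major row. Srsf6 fell from 136 and 154 to 87.2 and 105 FPKM.

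The most abundant SR protein transcript did not fall. Srsf5 (mm9 chromosome 12, 82043638 to 82052962), which binds purine-rich exon enhancers, measured 501 and 567 FPKM in shLuci and 598 and 693 FPKM in shTex10. Both shTex10 values lie above both controls, but the log2 change of 0.27 (SE 0.12) missed the threshold (limma, Benjamini-Hochberg adjusted p = 0.102), with an interval from -0.02 to 0.56. After the same sum over named genes and under quantile normalization Srsf5 passed as higher. Because Srsf5 makes up a large part of the family's FPKM, the summed SR protein level kept 79.8% of the control sum, more than 7 of its 8 genes that fell. Srsf11, at 88.2 and 93.6 against 72.8 and 83.7 FPKM, did not pass.

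Srsf12 (XLOC_018430, mm9 chromosome 4, 33295965 to 33320315), a low-level relative of Srsf10 measured 0.499 and 0.677 FPKM in shLuci and 2.62 and 2.82 FPKM in shTex10. The groups are far apart compared with their spread, and the ratio of the means was 4.62 (log2 change 1.23, SE 0.10, limma with Benjamini-Hochberg adjusted p = 0.000586). Both levels are small beside those of the rest of the family, and the gene could be tested only because it was higher in shTex10. With a minimum mean of 5 FPKM it left the test. It was called higher in each of the other 11 alternatives.

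**Figure D4:**
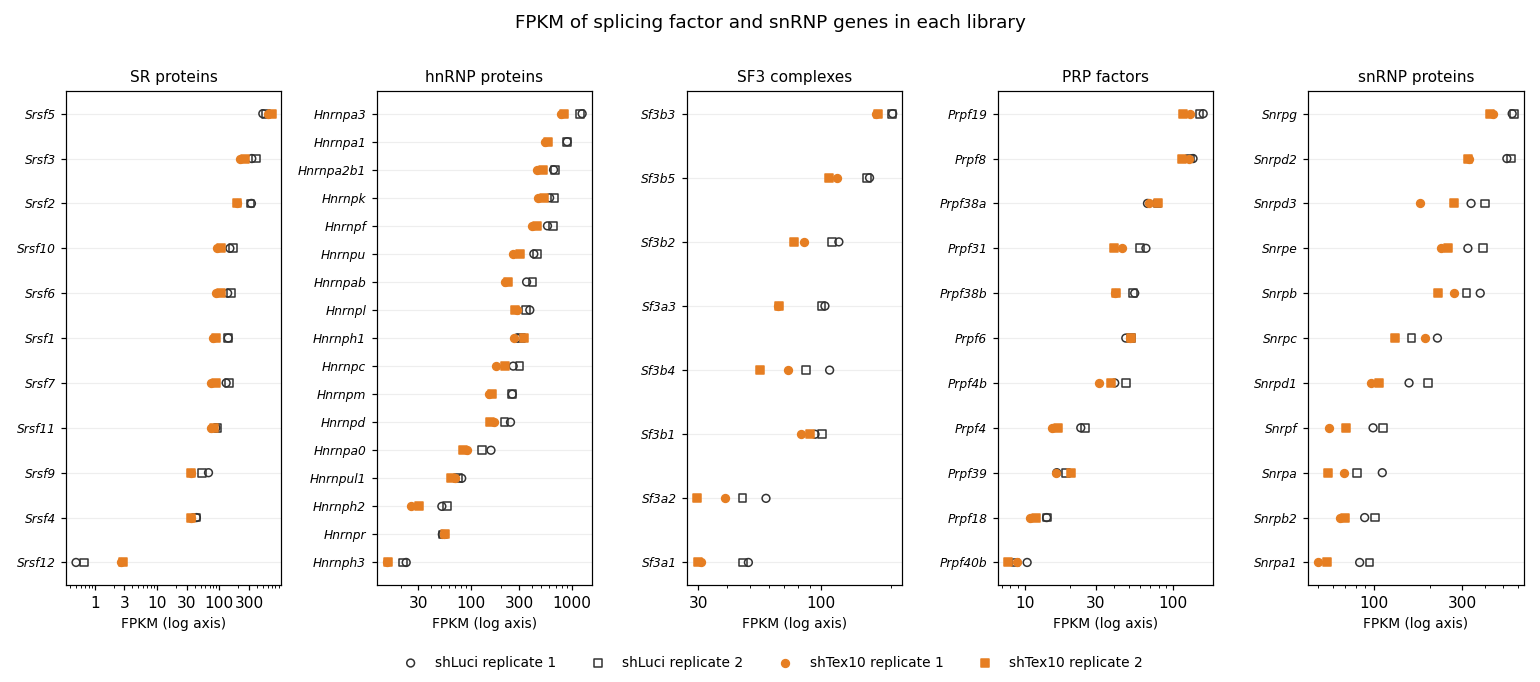
FPKM of 58 of the 59 genes (x axis, log scale) in the 4 libraries, ordered within each family by the shLuci mean. Open symbols are shLuci and filled symbols shTex10, with circles for replicate 1 and squares for replicate 2. The shTex10 symbols lie left of the shLuci symbols for most genes, and right of them for Srsf5, Srsf12 and Hnrnpr.

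Of 17 hnRNP genes, 7 fell under quantile normalization, 8 after the same sum over named genes and 14 (82.4%) as deposited. As deposited, 31.8% of all genes and 51.0% of those with at least 50 FPKM fell, and the 3 members Hnrnph1, Hnrnpr and Hnrnpul1 did not pass. The fallen members kept between 51.1% and 77.7% of the control mean. Hnrnph2 (XLOC_029720, mm9 chromosome X, 131135824 to 131141685), which binds runs of G, measured 51.3 and 57.7 FPKM in shLuci and 25.5 and 30.2 FPKM in shTex10 (log2 change -0.95, SE 0.12, adjusted p = 0.00208), the largest fall among the 59 genes as deposited. Its close relative Hnrnph1 was at 284 and 312 against 270 and 335 FPKM, overlapping between groups, with a log2 change of 0.01 (interval -0.31 to 0.33). Hnrnph3, also of this subfamily, fell from 22.7 and 21.2 to 14.5 and 15.1 FPKM (log2 change -0.54, SE 0.09).

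As deposited, transcripts of the A/B group fell together. All but Hnrnpa2b1 also fell under quantile normalization and after the same sum over named genes. Hnrnpab (mm9 chromosome 11, 51398258 to 51420383), a factor of mRNA processing and transport, went from 357 and 408 to 219 and 233 FPKM (log2 change -0.76, SE 0.10, adjusted p = 0.00276). Hnrnpa0 (mm9 chromosome 13, 58227239 to 58229917), a binder of AU-rich elements, went from 158 and 128 to 90.2 and 82.4 FPKM (log2 change -0.72, SE 0.13). The most abundant member, Hnrnpa3 (mm9 chromosome 2, 75497315 to 75507464), fell from 1270 and 1214 to 781 and 842 FPKM (log2 change -0.61, SE 0.09, adjusted p = 0.00379). Its replicates differ little compared with the gap between groups.

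Hnrnpa1 (mm9 chromosome 15, 103070862 to 103075386), a repressor of exons that also acts on microRNA processing, fell from 901 and 893 to 548 and 586 FPKM (log2 change -0.66, SE 0.09, adjusted p = 0.00263). Hnrnpa2b1, next in level, went from 661 and 681 to 454 and 519 FPKM (log2 change -0.47, SE 0.10). Processed copies of Hnrnpa1 and Hnrnpa3 are known in the mouse genome, so their values carry the uncertainty of shared reads. Hnrnpm, a regulator of exon choice, fell from 257 and 253 to 152 and 160 FPKM (log2 change -0.71, SE 0.09). Hnrnpu, a large protein that binds RNA and chromatin, had a log2 change of -0.62 (SE 0.11).

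The falls of Hnrnpf, Hnrnpd, Hnrnpc, Hnrnpl and Hnrnpk lay between -0.52 and -0.36 on the log2 scale. Hnrnpk, a poly(C)-binding protein, went from 604 and 675 to 466 and 528 FPKM and had the smallest of these changes (-0.36, SE 0.11, limma with Benjamini-Hochberg adjusted p = 0.0368). It lost its call without shLuci replicate 2 and without shTex10 replicate 1, and turned to 0.058 under quantile normalization. Hnrnpl, a binder of CA repeats, is listed in 2 rows of the same locus, at 360 and 333 against 269 and 255 FPKM for the major row and at 23.4 and 20.5 against 17.1 and 15.8 FPKM for the minor row. Both rows are lower in shTex10. Hnrnpr, close in sequence to Syncrip, measured 51.9 and 52.2 against 53.8 and 55.4 FPKM and did not pass.

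The SF3 complexes bring the U2 snRNP to the branch point, and 6 of their 8 genes (75%) fell as deposited. Of all genes 31.8% fell, and of those with at least 50 FPKM 51.0%. Under quantile normalization and after the same sum over named genes, only Sf3a1 and Sf3a3 fell. The 3 SF3A genes kept 63.5% to 65.6% of the control mean. Sf3a1 (XLOC_003257, mm9 chromosome 11, 4060356 to 4082544) went from 49.1 and 46.5 to 30.8 and 30.0 FPKM (log2 change -0.64, SE 0.09, adjusted p = 0.00267). Sf3a3 (mm9 chromosome 4, 124392104 to 124409666) went from 104 and 101 to 66.0 and 66.1 FPKM (log2 change -0.63, SE 0.08), with nearly equal values in the shTex10 pair. Sf3a2 went from 58.4 and 46.4 to 39.0 and 29.7 FPKM, with replicate 1 the higher in both groups.

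Of the 5 SF3B genes 3 passed, and all 5 had both shTex10 libraries below both controls. So did 48.1% of all genes, and 1225 of the 1839 genes with at least 50 FPKM. As shares of named FPKM, Sf3b1, Sf3b3 and Sf3b4 overlapped between the groups. Sf3b4 (mm9 chromosome 3, 95976472 to 95981487) fell from 109 and 86.6 to 72.7 and 55.3 FPKM, with a wide error (log2 change -0.61, SE 0.17, limma with Benjamini-Hochberg adjusted p = 0.0293). Sf3b5 (mm9 chromosome 10, 12728255 to 12728989), a small subunit, fell from 161 and 157 to 117 and 109 FPKM (log2 change -0.49, SE 0.09), and Sf3b2 had a log2 change of -0.51 (SE 0.10). The most abundant gene of the family, Sf3b3 (mm9 chromosome 8, 113334391 to 113370703), stood at 202 and 201 against 172 and 175 FPKM. The groups do not overlap, but the change of -0.22 (SE 0.08) missed the threshold (limma, Benjamini-Hochberg adjusted p = 0.0709). Sf3b1, the large scaffold subunit often mutated in blood cancers, was at 94.5 and 101 against 82.0 and 90.3 FPKM and did not pass (log2 change -0.18, interval -0.42 to 0.06).

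PRP factor genes had the median change nearest to 0. Of 12, 4 fell as deposited and 8 did not pass. The 33.3% that fell compare with 31.8% of all genes tested and 51.0% of those with at least 50 FPKM. Under quantile normalization and after the same sum over named genes, only Prpf4 of the 12 fell. Of all genes, 24.5% and 16.0% fell under these scalings. Prpf4 (XLOC_018549, mm9 chromosome 4, 62069806 to 62088024), a subunit of the U4/U6 snRNP, fell from 23.8 and 25.4 to 15.2 and 16.8 FPKM (log2 change -0.59, SE 0.10, adjusted p = 0.00504). Prpf31 (mm9 chromosome 7, 3581586 to 3594086), which joins the U4/U6 snRNP to U5 and is mutated in a retinal degeneration, fell from 65.5 and 59.6 to 45.4 and 40.2 FPKM (log2 change -0.54, SE 0.10). Prpf38b (mm9 chromosome 3, 108703559 to 108714627) went from 55.0 and 53.6 to 40.7 and 41.2 FPKM (log2 change -0.40, SE 0.08, adjusted p = 0.0109), with replicates that nearly coincide.

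Prpf19 (mm9 chromosome 19, 10969720 to 10984049), a ubiquitin ligase that gives its name to the complex activating the spliceosome, was the most abundant of the family. It fell from 159 and 150 to 129 and 117 FPKM (log2 change -0.33, SE 0.10, limma with Benjamini-Hochberg adjusted p = 0.0311). Its call was lost without shLuci replicate 1, shLuci replicate 2 or shTex10 replicate 2. Prpf8 (mm9 chromosome 11, 75300278 to 75322950), the large protein at the catalytic centre, stood at 136 and 130 against 127 and 115 FPKM. It lay lower in both shTex10 libraries but did not pass (log2 change -0.14, interval -0.37 to 0.09).

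The remaining tri-snRNP gene, Prpf6, which bridges U5 and U4/U6, measured 47.9 and 51.7 against 51.2 and 51.6 FPKM. Its groups overlap, with an interval from -0.17 to 0.26 on the log2 scale. Prpf38a and Prpf39 overlapped between groups as well, with log2 changes of 0.02 and 0.04. The locus of Prpf39 overlaps that of Fkbp3, whose row was at 147 to 324 FPKM, and the library kit that the labels name does not mark strand, so reads of the shared stretch cannot be told apart. Prpf18, a factor of the second step, kept 81.3% of its control mean and narrowly missed the threshold (limma, Benjamini-Hochberg adjusted p = 0.0512). Prpf40b and the kinase gene Prpf4b did not pass either, with log2 changes of -0.18 and -0.33.

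All 7 Sm protein genes tested fell as deposited, at a median log2 change of -0.73. Of all genes 31.8% fell, and of those with at least 50 FPKM 51.0%. Under quantile normalization and after the same sum over named genes, only Snrpd1, Snrpd2 and Snrpf of the 7 fell. Snrpd1 (XLOC_012778, mm9 chromosome 18, 10617793 to 10628228) measured 155 and 197 FPKM in shLuci and 96.0 and 107 FPKM in shTex10 (log2 change -0.78, SE 0.14, adjusted p = 0.00645). Snrpd3 (mm9 chromosome 10, 74980786 to 74998185) went from 335 and 398 to 177 and 271 FPKM (log2 change -0.74, SE 0.21), with the widest gap between shTex10 replicates in the family. Snrpd2 (mm9 chromosome 7, 19735186 to 19738075) fell from 524 and 554 to 329 and 321 FPKM (log2 change -0.73, SE 0.09, adjusted p = 0.00180). As deposited, the D1, D2 and D3 transcripts thus had estimated changes of nearly the same size, with levels that differ. The interval of Snrpd3 is wide, from -1.26 to -0.21. Under quantile normalization the changes were -0.47 for Snrpd1 and -0.32 for Snrpd2.

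Snrpf, with a log2 change of -0.73, was close to the D genes, while Snrpe (-0.56), Snrpb (-0.49) and Snrpg (-0.38) changed less. Snrpg (mm9 chromosome 6, 86321533 to 86328896), the most abundant of the family, went from 560 and 571 to 443 and 425 FPKM (SE 0.09, adjusted p = 0.0138). Under quantile normalization its change turned to 0.065, and it lost its call without shLuci replicate 2 and without shTex10 replicate 2. Snrpb, the gene of SmB, went from 376 and 317 to 272 and 221 FPKM, with replicate 1 the higher in both groups. Small genes such as these have processed copies in the genome, so single values are uncertain.

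Transcripts for proteins of the U1 or U2 snRNP fell in 3 of 4 cases (75%) as deposited. Of all genes 31.8% fell, and of those with at least 50 FPKM 51.0%. Under quantile normalization and after the same sum over named genes, only Snrpa1 of the 4 fell. Snrpa1 (mm9 chromosome 7, 73205221 to 73219473), a U2 protein, fell from 83.8 and 94.6 to 49.9 and 55.7 FPKM (log2 change -0.74, SE 0.11, adjusted p = 0.00317). Snrpb2, its U2 partner, fell from 89.1 and 101 to 65.9 and 69.3 FPKM (log2 change -0.48, SE 0.10). Both U2 transcripts had shTex10 values well under the lower control. Of the U1 proteins, Snrpa fell from 111 and 80.7 to 69.3 and 56.4 FPKM (log2 change -0.59, SE 0.18), and without shLuci replicate 1 it did not pass. Snrpc stood at 221 and 160 against 189 and 130 FPKM and did not pass, with overlapping groups and an interval from -0.82 to 0.30.

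The other splicing genes, from a list of 128 of which 126 were found, were mostly lower as well on the deposited scale. Among the 125 tested, 72 fell (57.6%, against 31.8% of all genes), 7 rose (5.60%, against 19.8%) and 46 did not pass, at a median log2 change of -0.42. Of all genes with at least 50 FPKM, for comparison, 51.0% fell and 9.46% rose, at a median of -0.35. Under quantile normalization 33 of the other splicing genes fell and 11 rose. There 24.5% of all genes fell and 20.2% rose, and of those with at least 50 FPKM 22.9% and 17.5%. After the same sum over named genes 36 fell and 11 rose. There the shares were 16.0% and 27.4% of all genes, and 26.9% and 15.4% of those with at least 50 FPKM. Of 14 genes for the assembly and maturation of snRNPs, from Sm proteins to the cap and transport of snRNA, 11 fell as deposited, at a median of -0.59. Gemin5, which recognizes snRNA for the SMN complex, fell from 32.8 and 33.3 to 16.7 and 16.8 FPKM (log2 change -0.94, SE 0.08). Gemin4, of the same complex, fell from 37.5 and 33.6 to 17.9 and 16.1 FPKM (log2 change -1.02, SE 0.10). Smn1 and the methylosome genes Prmt5, Wdr77 and Clns1a, named after their values were seen, fell too, to 54.0% to 65.4% of the control mean.

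Lsm genes, whose products form the ring on U6, fell in 5 of 6 cases, with Lsm7 at 184 and 177 against 108 and 101 FPKM (log2 change -0.79, SE 0.09). Nhp2l1, a protein of the U4/U6 snRNP, went from 263 and 248 to 142 and 134 FPKM (log2 change -0.88, SE 0.09), and Phf5a, a small SF3B subunit that the symbol rule does not reach, from 212 and 210 to 123 and 126 FPKM (log2 change -0.76, SE 0.08). Among proteins of U1, U2, the tri-snRNP and the minor spliceosome, these included, 11 of 21 (52.4%) fell. In the exon junction complex and TREX 8 of 12 (66.7%) fell, and at the branch and splice sites 9 of 15 (60.0%) fell and 2 rose. Of the factors of the Prpf19 complex and of later steps 8 of 20 (40%) fell and 1 rose, a share of falls between the 31.8% of all genes and the 51.0% of genes with at least 50 FPKM.

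The 7 genes that rose as deposited belong to regulators of exon choice and to a few single factors. Mbnl2, which drives exon patterns of differentiated cells, rose from 9.74 and 11.6 to 28.0 and 32.1 FPKM (log2 change 1.41, SE 0.12, limma with Benjamini-Hochberg adjusted p = 0.000687). Mbnl1, of the same family, was at 5.38 and 7.88 against 15.2 and 10.6 FPKM (log2 change 0.87, SE 0.22), and the epithelial splicing regulator Esrp2 at 4.04 and 2.98 against 6.94 and 5.69 FPKM. Mbnl1 and Esrp2 are outside the naming rule and were added after their values were seen. Rbm17, a U2-related factor, rose from 118 and 128 to 191 and 221 FPKM (log2 change 0.73, SE 0.11). Cwc22, which recruits the exon junction complex, rose from 53.1 and 62.5 to 96.6 and 111 FPKM (log2 change 0.84, SE 0.12). The helicase gene Dhx16 rose from 73.9 and 67.0 to 117 and 99.5 FPKM (log2 change 0.61, SE 0.12).

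Kinases of SR proteins did not move together. Clk1, which phosphorylates SR proteins in the nucleus, rose from 48.8 and 52.1 to 68.5 and 72.7 FPKM (log2 change 0.48, SE 0.09, limma with Benjamini-Hochberg adjusted p = 0.00784). Clk2 fell to 70.4% and Srpk1, the cytoplasmic SR protein kinase, to 56.4% of the control mean, while Clk3 and Clk4 did not pass. Srpk2 did not pass either, at 7.14 and 7.49 against 6.99 and 7.95 FPKM, and Srpk3 was too low to be tested. Clk2 to Clk4 and the Srpk genes were named after their values were seen. Of the regulators of exon choice 14 of 26 (53.8%) fell and 3 (11.5%) rose. Of all genes 31.8% fell and 19.8% rose, and of those with at least 50 FPKM 51.0% and 9.46%. The 3 that rose, Mbnl1, Mbnl2 and Esrp2, had means of 4.91 to 20.4 FPKM, under that level.

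Markers of cell type moved in the same libraries. The ES cell identity of the cultures shows in all 8 of its markers, at 58.0 FPKM or more in every library. Their summed level was 2870 and 2713 FPKM in shLuci and 1836 and 1746 FPKM in shTex10. Of these markers 6 fell as deposited, among them Pou5f1, the central pluripotency factor, from 938 and 848 to 600 and 549 FPKM. Sox2 and Sall4 did not pass. For comparison, 51.0% of all genes with at least 50 FPKM fell. Of 6 trophectoderm markers, genes of the first placental lineage, Eomes, Gata3, Krt8 and Krt18 rose (19.8% of all genes tested rose). Their list summed to 243 and 254 FPKM in shLuci and 539 and 535 FPKM in shTex10, nearly all of it from the keratin genes. Among its defining regulators, Cdx2 went from 0.332 and 0.460 to 1.49 and 1.43 FPKM, under the level needed for testing, and Elf5 stayed under 0.1 FPKM in every library.

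All 5 primitive endoderm markers and 2 of 3 mesoderm markers stayed under 1 FPKM in every library. Of 3 neuroectoderm markers Pax6 fell, Nes rose and Sox1 stayed under 1 FPKM. Of 6 fibroblast markers 3 stayed under 1 FPKM, 1 fell and the other two did not pass, and the sums were 36.7 and 28.1 FPKM in shLuci and 42.3 and 30.8 FPKM in shTex10. What part these shifts have in the results on splicing genes was not tested, and in bulk RNA a smaller share of cells that express a gene and less RNA per cell cannot be told apart.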

How the data were processed

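RNA of 4 libraries (2 shLuci, 2 shTex10) was measured by poly(A)-selected sequencing. The deposited values are FPKM, 1 table per library, per the file headers. The build mm9 and the tools Cufflinks 2.1.1, TopHat2 2.0.10 and Bowtie2 2.1.0 are listed in the submitters' processing notes. Settings and annotation were not given in the sources used here. FPKM keep no counts, so no counting intervals are given. Depth was estimated, relative to shLuci replicate 1, from the smallest value above 0 at each locus length among rows without a gene name, as the most frequent ratio. The estimate is rough, since 36.7% to 38.0% of lengths gave that ratio. Rows sharing a gene name were summed. A gene entered the test if its mean over the libraries reached 1 FPKM. The test was limma 3.58.1 (R 4.3.3) on log2(FPKM + 1), two-sided, with eBayes and its variance trend, without the replicate number as a block, and with Benjamini-Hochberg adjustment over all genes at 0.05. The fit was tested on simulated data. Fold changes on this scale understate the change of low genes.

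The genes, the list of other splicing genes and the tests were chosen with earlier results of these data known. Full values are given for the 3 called members of each family with the largest change in each direction and the 2 with the highest level, with other members shorter, and for the 5 other splicing genes with the smallest p in each direction (values per library, log2 change and SE). One symbol of the Snrp family and the single values of 1 PRP factor gene, which stays in the counts, are not reported here. Of the other splicing genes, 2 were not analysed here. Promoter windows came from the RefSeq table by symbol, on GRCm38.p6, while other coordinates are mm9 from the deposited tables. Alternatives were a pseudocount of 0.1, no filter, a minimum mean of 5 FPKM, quantile normalization, the same sum over named genes or over all rows, the highest row per name, the replicate number as a block and leaving out each library. The background of genes with at least 50 FPKM, as deposited and under other scalings, was added after the data were seen.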

Additional observations from a re-analysis of the deposited data

How the results depend on the processing

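As deposited, 2350 genes were called higher and 3779 lower. The same sum over named genes gave 3269 higher and 1901 lower, which reverses the balance. The same sum over all rows gave 662 higher and 239 lower, and a minimum mean of 5 FPKM gave 1292 higher and 3120 lower. The members called lower were 42, and 19 under quantile normalization, 22 after the same sum over named genes and 0 over all rows. The members called higher were 1, and 0 with a minimum of 5 FPKM, 3 under quantile normalization and 4 after the same sum over named genes. Other splicing genes went from 72 lower and 7 higher to 33 and 11 under quantile normalization, 36 and 11 after the same sum over named genes, and 0 and 1 over all rows. Of all genes, 24.5% were lower and 20.2% higher under quantile normalization. The shares were 16.0% and 27.4% after the same sum over named genes, and 2.00% and 5.55% over all rows. The members' median of -0.52 became -0.22 under quantile normalization and -0.29 after the same sum over named genes. Relative to all genes it was -0.38, and -0.51 with no filter and -0.15 under quantile normalization. The all-gene median turned to 0.064 after the same sum over named genes. In the cases named here the cause was not tested, except that no filter adds genes near 0 and a minimum of 5 FPKM removes Srsf12.

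With the replicate number as a block, 3210 genes (27.0%) were higher and 5709 (48.0%) lower. Of genes with at least 50 FPKM, 14.8% were higher and 70.7% lower. Of the members 2 were higher and 52 lower, all 8 SF3 genes among them, and of the other splicing genes 14 were higher and 99 lower. The deviations of same-numbered libraries correlated at 0.33 over genes, but with 2 pairs the labels share only a number, so the pairing is not established. Leaving out 1 library at a time left 37 to 39 members lower, 1 higher, a median of -0.51 to -0.46 (-0.39 to -0.32 relative to all genes) and a difference in share of -0.37 to -0.30 percentage points.

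Signs turned for these log2 changes. Under quantile normalization they were 0.058 for Hnrnpk, 0.14 for Prpf8, 0.085 for Sf3b1, 0.16 for Sf3b3, 0.070 for Snrpc, 0.065 for Snrpg and 0.027 for Srsf11. After the same sum over named genes they were 0.022 for Prpf40b, 0.090 for Prpf8, 0.044 for Sf3b1, 0.0087 for Sf3b3 and 0.0090 for Srsf11. With each library left out in turn, the change ranged from -0.14 to 0.17 for Hnrnph1, from -0.087 to 0.13 for Prpf38a, from -0.12 to 0.20 for Prpf39, from -0.0086 to 0.099 for Prpf6 and from -0.53 to 0.011 for Snrpc. The negative values of the first 4 came without shLuci replicate 1 or shTex10 replicate 2, and the positive one of Snrpc without shTex10 replicate 2. Of the genes in this paragraph, Hnrnpk and Snrpg were called lower as deposited. FPKM do not give the counts behind a value, so how far depth limits single genes is unknown.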

Other observations

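The locus of Hnrnpk also holds a row for the microRNA gene Mir7-1, which lies in an intron of Hnrnpk. It was looked at after its values were seen. The row was at 324 and 168 FPKM in shLuci and is listed at 0 in both shTex10 libraries, while Hnrnpk itself kept 77.7% of its control mean. FPKM of so short a feature can rest on few reads, and no fold is given against a group at 0.

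Across the 59 members, the log2 change and the log2 mean level had a Pearson r of -0.40 and a Spearman rho of -0.18. The points are genes that share the same 4 libraries, so this is a description.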
